A study of Mus musculus with 20 samples.

Results

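The cytochrome P450 family comprises membrane-bound haem enzymes that oxidise small molecules. Members were taken as the annotated mouse genes whose symbol is Cyp followed by a digit, leaving out pseudogene names ending in -ps and Cyp51, the lanosterol demethylase of cholesterol synthesis. Of 135 such names, 33 pseudogenes and Cyp51 were left out, so 101 members remained among 56805 annotated genes. Reads in enough libraries for a test were found for 64 of the 101 members, against 21306 of all genes. Another 29 members had reads in at least 1 library but did not reach the minimum in enough libraries for a test, and 8 had none.

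Poly-A RNA of white adipose tissue was sequenced from 20 mice, 5 in each of 4 groups. Feed was either chow or a high-fat diet, drink was either water or Tibetan tea prepared as an extract in water, and the treatment lasted 10 weeks. The groups are called chow water, chow tea, high-fat water and high-fat tea. Strain, age, sex, fat depot and collection hour are not given in the sources consulted. The comparison named by the study's title is that of tea against water under the high-fat diet.

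A P450 reaction needs electrons that NADPH-cytochrome P450 reductase (Por) passes to the enzymes of the endoplasmic reticulum, while the mitochondrial members receive theirs through ferredoxin. Families 1 to 3 are best known for the oxidation of drugs, solvents and plant compounds in the liver. Family 4 and the Cyp2j enzymes act on fatty acids and eicosanoids, and further members make or break down steroid hormones, bile acids, vitamin D and retinoic acid. Several genes of families 1 to 3 are induced by their substrates through the aryl hydrocarbon receptor (Ahr) and the nuclear receptors PXR and CAR. By role, 52 members (29 tested) belonged to the xenobiotic families, 30 (22 tested) to the fatty acid and eicosanoid enzymes, 6 (5 tested) to sterol and bile acid metabolism, 6 (5 tested) to vitamin D and retinoid metabolism and 6 (2 tested) to steroid hormone synthesis, and Cyp20a1, an orphan enzyme, stood alone. Roles were given by symbol, so the 30 include Cyp4x1os, a gene on the strand opposite Cyp4x1 that had no reads.

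Promoter sequences are shown for 5 members that differ in level and response. Each run is the 250 bases before the RefSeq transcription start in GRCm38.p6, 5′ to 3′ on the strand of the gene, and these positions are on another build than the GRCm39 gene positions given below. Capitals mark GCGTG, the core that the aryl hydrocarbon receptor binds, or the D-box TTATGNAA, the element of DBP and its relatives, each searched on both strands, so CACGC and TTGCATAA are matches on the opposite strand. No match printed overlaps another.
Cyp2e1 (chr7:140763569-140763818, plus strand): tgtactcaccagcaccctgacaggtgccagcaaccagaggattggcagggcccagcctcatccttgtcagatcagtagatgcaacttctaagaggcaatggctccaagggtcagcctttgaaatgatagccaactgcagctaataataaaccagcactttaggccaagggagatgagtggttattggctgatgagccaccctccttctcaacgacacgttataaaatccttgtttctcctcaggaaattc
Cyp1a1 (chr9:57697363-57697612, plus strand): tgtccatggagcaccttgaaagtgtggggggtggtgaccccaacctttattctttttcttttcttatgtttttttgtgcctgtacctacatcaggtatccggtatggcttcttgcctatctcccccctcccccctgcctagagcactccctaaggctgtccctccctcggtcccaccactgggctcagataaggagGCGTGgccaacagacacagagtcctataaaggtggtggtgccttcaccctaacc
Cyp1b1 (chr17:79715062-79715311, minus strand): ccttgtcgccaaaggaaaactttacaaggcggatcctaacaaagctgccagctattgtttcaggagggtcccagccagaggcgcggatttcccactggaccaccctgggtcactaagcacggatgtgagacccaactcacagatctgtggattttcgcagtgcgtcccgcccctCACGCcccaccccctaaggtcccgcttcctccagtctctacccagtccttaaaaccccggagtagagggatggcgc
Cyp2b10 (chr7:25897408-25897657, plus strand): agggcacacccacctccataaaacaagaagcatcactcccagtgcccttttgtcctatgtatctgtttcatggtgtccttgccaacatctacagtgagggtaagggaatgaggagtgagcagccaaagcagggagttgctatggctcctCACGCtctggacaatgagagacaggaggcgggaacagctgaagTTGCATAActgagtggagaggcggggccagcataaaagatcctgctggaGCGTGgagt
Cyp27a1 (chr1:74713285-74713534, plus strand): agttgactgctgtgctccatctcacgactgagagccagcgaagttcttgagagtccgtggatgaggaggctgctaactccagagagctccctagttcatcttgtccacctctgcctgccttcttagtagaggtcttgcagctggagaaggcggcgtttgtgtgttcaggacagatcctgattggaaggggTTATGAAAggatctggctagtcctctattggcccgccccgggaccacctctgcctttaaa
Cyp2e1, by far the most abundant member, held neither motif in its window. Cyp1a1 and Cyp1b1, textbook targets of the aryl hydrocarbon receptor, held GCGTG at 54 and 76 bases before the start. The 250 bases before the start of Cyp1a2, the other member of family 1, held neither motif. Cyp2b10, a textbook target of CAR, held GCGTG at 101 and 9 bases and a D-box at 58 bases before the start. Cyp27a1, whose level differed little between the groups, held a D-box at 60 bases. Among all 32851 promoter windows of 300 bases in the RefSeq table, 32.4% held GCGTG and 3.4% the D-box. Of the 87 windows of 77 members with an entry, 19.5% and 8.0% did, and of the 55 windows of tested members 27.3% and 9.1%. These matches describe the letters of the windows and show no binding.

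Libraries held 53047057 to 93314761 reads in genes. Levels are CPM, the usual read counts relative to library size, here on a scaled library size. Brown and beige fat transcripts (Ucp1, Cidea and Elovl3 summed) ranged from 26.2 to 1325 CPM in chow water, 64.4 to 928 in chow tea, 5.48 to 1113 in high-fat water and 57.1 to 1047 in high-fat tea, and none of the 3 genes was called in any comparison. All 8 genes of the adipocyte list (among them Adipoq, Plin1 and Fabp4) were at or above a median of 1 CPM, and their summed level was 9992 to 34910 CPM in chow water, 25990 to 32617 in chow tea, 17379 to 30641 in high-fat water and 7592 to 33864 in high-fat tea. The 3 lowest libraries were high-fat tea replicate 4, chow water replicate 1 and high-fat water replicate 4, and each of them carried transcripts of other organs. Kidney transcripts, summed over 12 markers, exceeded 1000 CPM in chow water replicate 2 (1870 CPM) and high-fat tea replicate 4 (25234 CPM). Adrenal cortex transcripts exceeded 1000 CPM in high-fat water replicate 4 (9928 CPM over 9 markers), and gut transcripts in chow water replicate 1 (8152 CPM over 14 markers). That last library also had pancreatic acinar transcripts at 536630 CPM. In high-fat water replicate 4 a list of seminal vesicle, epididymis and testis genes stood at 27991 CPM. Nearly all of it came from the seminal vesicle genes Svs5 (18850 CPM) and Svs4 (9140 CPM). The epididymal genes Adam7, Crisp1, Lcn5 and Lcn8 stood at 0.0191, 0.0763, 0 and 0 CPM in that library. Fainter kidney traces stood in chow tea replicates 2 and 3 (list at 250 and 605 CPM). A fainter adrenal trace stood in high-fat tea replicate 2 (Star at 216 CPM against at most 16 CPM in libraries outside the one with adrenal cortex transcripts). The gut list stood at 816 CPM in high-fat tea replicate 4, mostly from Pigr, Vil1, Guca2b and Cdhr5 (245, 229, 162 and 136 CPM). Sis, Fabp2, Lct, Alpi and Muc2 stood there at 1.57, 5.5, 0.895, 0.355 and 1.02 CPM, against 1324, 1183, 653, 353 and 305 CPM in chow water replicate 1. Skeletal muscle transcripts exceeded 1000 CPM in 6 libraries of the 4 groups. In all, 4 libraries exceeded 1000 CPM for kidney, adrenal or gut and 9 for any other organ, muscle included, and leaving out the 9 left 3 chow water, 4 chow tea, 2 high-fat water and 2 high-fat tea libraries. P450 enzymes are abundant in kidney, adrenal and gut, so each member was marked for an organ when over 50% of its summed level lay in that organ's libraries.

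By this rule 28 members were marked for kidney, 5 for adrenal and 14 for gut, and 54 were not marked. Among the 64 tested members 23, 1 and 6 were marked and 34 were not. The marks rest on libraries of chow water, high-fat water and high-fat tea. Median changes given below for marked and unmarked members therefore partly follow from this rule. An unmarked member could still hold much of its level in organ-bearing libraries. Cyp2d26 held 48.7% in the gut library and 47.5% in the kidney libraries, and Cyp7b1 and Cyp4a32 held 48.1% and 45.6% in the kidney libraries. Kidney marks covered enzymes of the kidney tubule. Cyp4b1 reached 3809 CPM in high-fat tea replicate 4 and 355 CPM in chow water replicate 2, but 92.5 to 209 CPM in the other 18 libraries, so it was expressed in every library. Cyp2j5, an arachidonic acid epoxygenase of the proximal tubule, stood at 1161 CPM in high-fat tea replicate 4 and 83.7 CPM in chow water replicate 2, against at most 23.7 CPM elsewhere. Cyp24a1, which inactivates vitamin D, stood at 277 and 28.0 CPM in the same libraries and at most 3.4 CPM elsewhere.

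Kidney marks further covered the fatty acid omega-hydroxylases Cyp4a10 (835 CPM in high-fat tea replicate 4), Cyp4a14 (723 CPM), Cyp4a31 (707 CPM), Cyp4a12a (319 CPM) and Cyp4a12b (28.4 CPM). They also took in Cyp2a4 (387 CPM), Cyp2j13 (312 CPM), Cyp2d9 (237 CPM), Cyp2a5 (151 CPM), Cyp2j11 (114 CPM) and Cyp2d12 (47.6 CPM), each highest in that library. Lower in the same library were Cyp2c23 (21.8 CPM), Cyp8b1 (16.3 CPM), Cyp2d10 (12.7 CPM), Cyp2c50 (9.91 CPM), Cyp2a12 (8.17 CPM), Cyp2c67 (5.09 CPM), Cyp2c37 (4.34 CPM), Cyp1a2 (4.17 CPM) and Cyp2c54 (4.09 CPM). Of these, Cyp1a2, Cyp2a12, Cyp8b1 and the Cyp2c genes are best known from liver, and the liver list stood at 1815 CPM in that library, with Alb at 998 CPM. In chow water replicate 1 the list summed to 3369 CPM, of which Apoa1 alone made 3324 CPM and Alb 18 CPM. The 5 kidney-marked members without a test, Cyp2j7, Cyp3a59, Cyp2d13, Cyp2d40 and Cyp2c69, reached 0.293 to 2.75 CPM.

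Adrenal marks rested on 1 library. In high-fat water replicate 4, Cyp21a1 (steroid 21-hydroxylase) stood at 1581 CPM, Cyp11b1 (steroid 11-beta-hydroxylase) at 1538 CPM, Cyp11a1 (the side-chain cleavage enzyme that opens steroid synthesis) at 1500 CPM and Cyp11b2 (aldosterone synthase) at 120 CPM. That library held 94.7%, 95.5%, 95% and 98.9% of the summed level of these genes, in the same order. Cyp19a1, the aromatase that makes oestrogens, had reads in this library alone, at 0.0573 CPM. Cyp17a1, which makes androgen precursors, was tested, was not marked and never exceeded 0.554 CPM.

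Gut marks rested on chow water replicate 1. There Cyp3a11, a main drug-oxidising enzyme, stood at 483 CPM, Cyp3a13 at 293 CPM, Cyp4f14, a leukotriene hydroxylase, at 287 CPM, Cyp3a25 at 116 CPM and Cyp2c65 at 95.8 CPM. Lower were Cyp2c68 (40.0 CPM), Cyp4f40 (24.5 CPM), Cyp2c66 (23.4 CPM), Cyp2c55 (10.8 CPM) and Cyp2c29 (8.67 CPM), and Cyp2c38, Cyp3a44, Cyp2w1 and Cyp3a16 reached 0.0326 to 2.28 CPM. In high-fat tea replicate 4, the library with kidney transcripts and Alb at 998 CPM, Cyp3a11 stood at 10.4 CPM. In the other 18 libraries it stood at no more than 0.706 CPM.

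**Figure D1:**
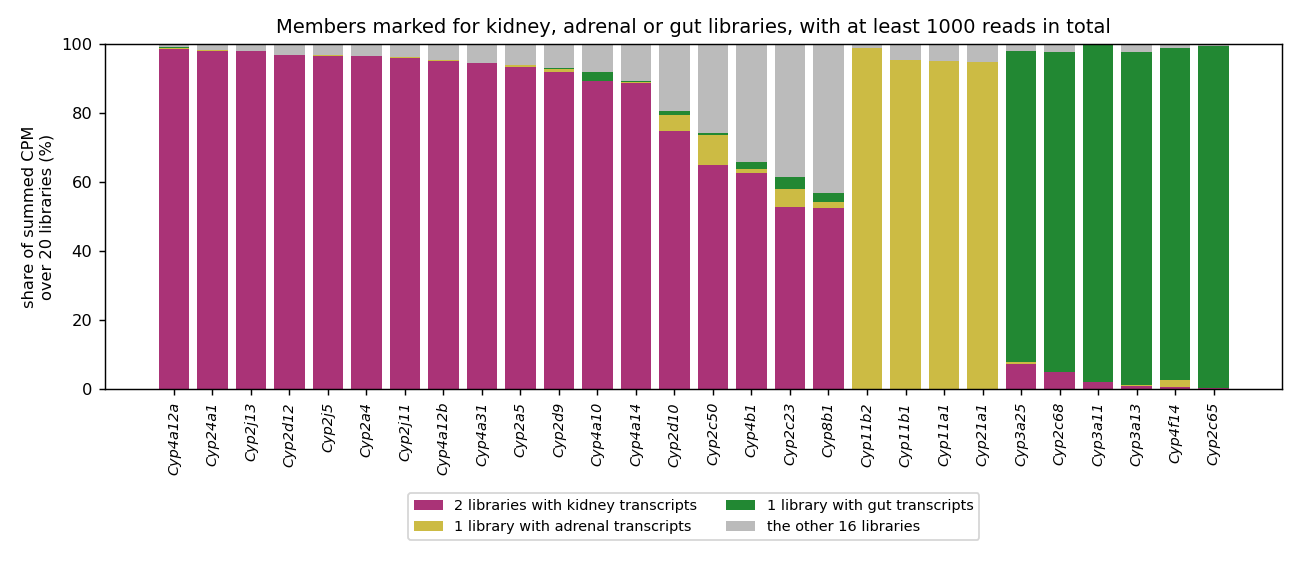
Share of each marked member's summed CPM over 20 libraries (vertical axis, %) that lay in the 2 libraries with kidney transcripts, the 1 with adrenal transcripts, the 1 with gut transcripts and the other 16, for the 28 marked members with at least 1000 reads. Most bars are filled by a single organ's libraries, while Cyp4b1, Cyp2c23 and Cyp8b1 kept over 30% of their level in the other 16.

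Of the 34 tested members without a mark, 21 had a median of at least 1 CPM. Per kilobase of exon, the scale on which genes can be compared, Cyp2e1 led with a median level of 2603 CPM per kilobase, followed by Cyp2d22 (33.5), Cyp27a1 (27.4), Cyp4v3 (13.3), Cyp20a1 (11.7), Cyp4f17 (8.81), Cyp1b1 (8.77), Cyp2j6 (7.69) and Cyp4f13 (6.64). Cyp4b1, marked for kidney, would rank second at 62 CPM per kilobase. Cyp2e1 alone made up 47.5% to 93.8% of the summed P450 level in 18 libraries. It made up 13.8% in high-fat water replicate 4, where adrenal members dominated, and 23.0% in high-fat tea replicate 4, where kidney members did. The heat map of levels in each library shows the high-fat water columns low for Cyp2e1, Cyp2d22, Cyp2f2 and Cyp1a1.

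**Figure D2:**
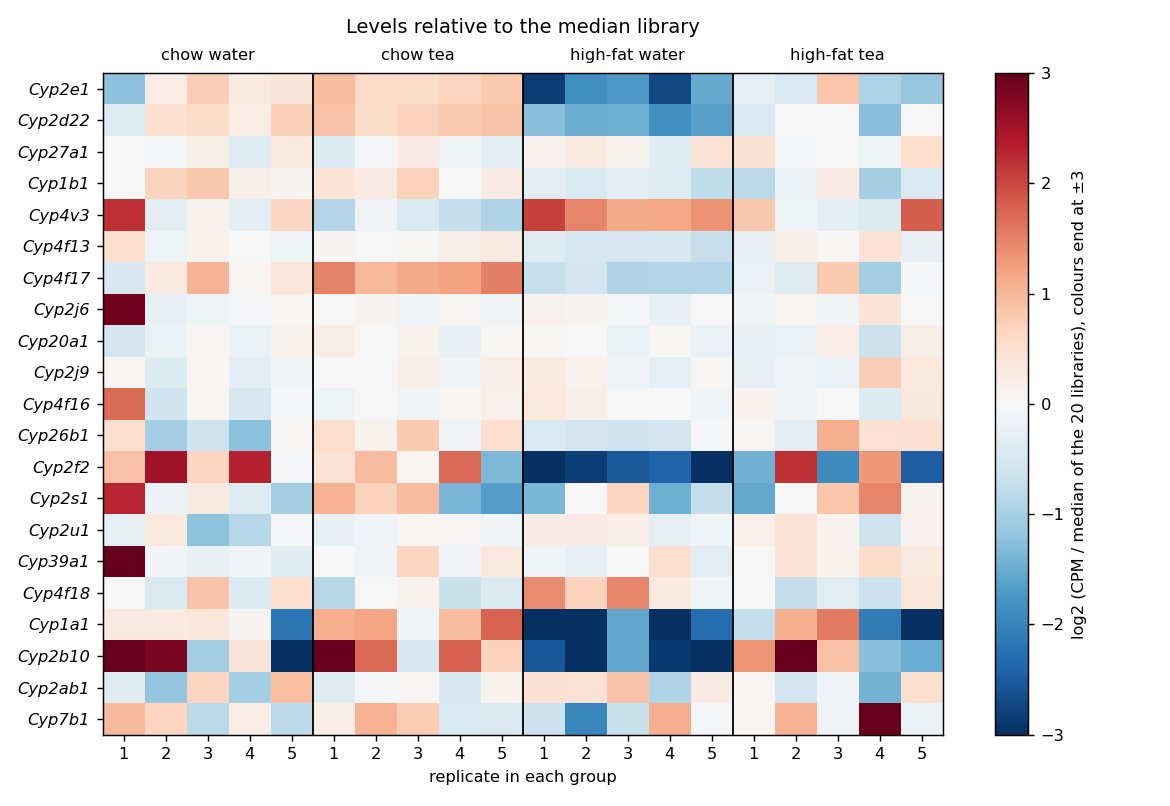
Level of the 21 unmarked members with a median of at least 1 CPM (rows, by falling median) in each of the 20 libraries (columns, by group and replicate), as log2 of the ratio to the member's median over all libraries, with colours ending at ±3. The 5 high-fat water columns are blue for Cyp2e1, Cyp2d22, Cyp2f2, Cyp1a1 and Cyp2b10, and single dark red cells in chow water replicate 1 belong to Cyp2j6 and Cyp39a1.

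With water to drink, 12 P450 members, 9 of them from the xenobiotic families, were called lower on the high-fat diet than on chow over all 20 libraries. Of the 64 tested members 13 were called at an adjusted p below 0.05 in the edgeR quasi-likelihood test with Benjamini-Hochberg adjustment, 12 lower and 1 higher. Among all genes tested 15.2% were called, 7.11% lower and 8.06% higher, against 20.3% of the P450 members. Of the 34 unmarked members 8 were lower and 0 higher (20 log2 changes below 0, median −0.32), and of the 30 marked members 4 were lower and 1 higher (21 below 0, median −4.04), while the median over all genes was 0. By role, 9 of 29 xenobiotic members were lower (median log2 change −1.88) and 3 of 22 fatty acid and eicosanoid members (median −1.14). None of the 5 sterol and bile acid, 5 vitamin D and retinoid members or Cyp20a1 was called, and the unadjusted p was below 0.05 for 1, 1 and 0 of them. At an unadjusted p below 0.05 stood 25 members, against 30.8% of all genes. DESeq2 called 11 of the 40 members to which it gave an adjusted p, 10 lower and 1 higher, against 21.6% of all genes. The higher 1 was Cyp2c70, at 2.79, 1.24, 0.857, 0.945 and 0.795 CPM in high-fat water and 0.945, 0.0288, 0.0513, 0 and 0.0502 CPM in chow water. Without the 9 libraries with other-organ transcripts edgeR called 4 members, among them 3 of the 13 (Cyp2e1, Cyp2d22 and Cyp4f17). The 2 groups did not overlap for 9 members, against 12.9% of all genes.

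Between tea and water on the high-fat diet, 8 of the 64 members were higher and 0 lower in the edgeR test. The 8 are 12.5% of the members, against 4.36% of all genes called, 2.06% higher and 2.3% lower. At an unadjusted p below 0.05 stood 31 members, against 23.6% of all genes. Unmarked members made up 6 of the 8, among them Cyp4a32 with 45.6% of its summed level in the kidney libraries. Over the 34 unmarked members the median log2 change was 0.12, and over the 30 marked members 3.54, beside 0.02 over all genes. The groups did not overlap for 6 members, against 5.55% of all genes. DESeq2 called 11 of 39 members, 10 higher and 1 lower, against 12.4% of all genes. Both comparisons use the same 5 high-fat water libraries, so their values are set side by side and neither supports the other. The counts are sensitive to single libraries of the tea comparison, which gave 1 to 13 calls when libraries were left out in turn, and 0 when only the 2 groups compared were fitted. Without the 9 libraries with other-organ transcripts Cyp2d22 was the 1 member called, and Cyp2e1 stood at 1.51 (adjusted p = 0.141).

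Cyp2e1 (chromosome 7, 140343652 to 140354900, plus strand), which oxidises ethanol, acetone and fatty acids, stood at 2411, 6587, 9331, 6811 and 7292 CPM in the chow water libraries, in replicate order. High-fat water libraries held 775, 1566, 1704, 842 and 1972 CPM. Every high-fat water library lay below every chow water library, the lowest of which was the one with pancreatic and gut transcripts. The mean fell from 6486 ± 2523 to 1372 ± 535 CPM (SD, n = 5 each; log2 −2.24, SE 0.42; edgeR adjusted p = 0.00284). With tea the high-fat libraries held 4646, 4104, 10032, 2912 and 2566 CPM, all above the high-fat water libraries and with the third far above the rest. The mean of 4852 ± 3018 CPM was higher than in high-fat water (log2 1.82, SE 0.42; edgeR adjusted p = 0.0233). That call was lost in 4 of the 10 fits that left out a library (high-fat tea replicate 3 and high-fat water replicates 1, 2 or 4), with log2 changes of 1.37 to 1.99 over the 10 fits and adjusted p of up to 0.0721.

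Cyp2d22 (chromosome 15, 82254728 to 82264461, minus strand), a mouse member of the drug-oxidising Cyp2d group, was called in both comparisons. Chow water libraries held 99.7, 182, 192, 154 and 214 CPM and high-fat water libraries 55.2, 46.7, 47.4, 36.8 and 42.5 CPM, with no overlap. High-fat tea libraries held 95.8, 132, 130, 54.0 and 129 CPM, of which only replicate 4, the library with kidney transcripts, reached into the high-fat water range. The fall with the diet was −1.88 on the log2 scale (SE 0.22; edgeR adjusted p = 0.000122) and the rise with tea on the high-fat diet 1.24 (SE 0.22; edgeR adjusted p = 0.00746). Both calls held in each of the 10 fits that left out 1 library of the comparison, with log2 changes of −2.06 to −1.78 and 1.16 to 1.41. Without the 4 libraries with kidney, adrenal or gut transcripts the values were −2.01 and 1.37. When only the 2 high-fat groups were fitted, the rise was 1.26 and was not called (adjusted p = 0.0728, against 5e-06 to 0.0445 under the other alternatives).

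The level of the adipocyte list moved with that of Cyp2e1 in the libraries with foreign transcripts, so both genes were also expressed as a share of the list's summed level, an analysis chosen after these values were seen. In bulk tissue fewer fat cells and less RNA per fat cell cannot be told apart. Cyp2e1 amounted to 25.3% ± 3.13 (SD, n = 5) of the list in chow water, 30.4% ± 2.49 in chow tea, 5.09% ± 1.63 in high-fat water and 24.3% ± 12.8 in high-fat tea. Per library the share was 2.54%, 5.11%, 6.21%, 4.85% and 6.75% in high-fat water and 17.9%, 21.9%, 35.8%, 38.3% and 7.58% in high-fat tea, without overlap. The highest, in high-fat tea replicate 4, stood in a library with kidney transcripts at 25234 CPM, the liver list at 1815 CPM and the adipocyte list at 7592 CPM. For Cyp2d22 the highest high-fat tea share (0.712%) was also that of replicate 4, and the highest chow water share (0.998%) that of replicate 1. Whether reads of either gene there came from other organs was not tested. The difference was −2.38 on the log2 scale for the diet in water and 2.12 for tea on the high-fat diet (2-sided exact permutation test over samples, n = 5 each, p = 0.00794 for both, the smallest that 252 arrangements allow; adjusted over 8 such tests, 0.0159). For tea on chow it was 0.27 (exact permutation p = 0.0238, adjusted 0.0381) and for the diet in tea-drinking mice −0.53 (exact permutation p = 0.254, adjusted 0.29). Cyp2d22 amounted to 0.706% ± 0.176, 0.731% ± 0.0723, 0.173% ± 0.0262 and 0.526% ± 0.17 of the list in chow water, chow tea, high-fat water and high-fat tea, with differences of −2.01 and 1.56 for the diet in water and tea on the high-fat diet (exact permutation p = 0.00794 each, adjusted 0.0159). For tea on chow and the diet in tea-drinking mice they were 0.08 and −0.53 (exact permutation p = 0.675 and 0.0556, adjusted 0.675 and 0.0741). Both genes were picked after edgeR had called them in these same libraries. The adjustment over 8 tests does not allow for that choice. For the diet in water and for tea on the high-fat diet, the CPM of Cyp2e1 already did not overlap between the groups. The permutation p-values of these comparisons are therefore not evidence independent of the edgeR calls. Of the 8 genes of the list, 1 was called higher on the high-fat diet in water-drinking mice and none in the other comparisons.

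Cyp1a1 and Cyp1b1, enzymes that oxidise polycyclic aromatic compounds and carry the GCGTG core in the promoters shown above, differed from each other. Cyp1a1 (chromosome 9, 57595211 to 57611107, plus strand) held 4.92, 4.95, 5.22, 4.30 and 0.904 CPM in chow water, 0.122, 0.250, 1.38, 0.0763 and 0.830 CPM in high-fat water and 2.49, 8.60, 12.1, 0.957 and 0.399 CPM in high-fat tea. The groups overlapped in both comparisons. It was called lower with the diet (log2 −2.94, SE 0.88; edgeR adjusted p = 0.0325) and higher with tea on the high-fat diet (log2 3.21, SE 0.89; edgeR adjusted p = 0.0482). Leaving out single libraries removed these calls in 6 of 10 fits for the diet (without 1 of chow water libraries 2, 3 and 4 or high-fat water libraries 1, 2 and 4) and in 7 of 10 for tea (without 1 of tea libraries 1, 2 and 3 or water libraries 1, 2, 4 and 5 of the high-fat groups), with adjusted p of up to 0.0789 and 0.118. Without high-fat water replicate 3 the fall came to −3.66, and the rise at 3.94 without that library and 2.55 without high-fat tea replicate 3.

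Cyp1b1 (chromosome 17, 80008966 to 80022490, minus strand) held 51.3, 80.9, 89.2, 58.1 and 54.1 CPM in chow water and 40.8, 37.5, 40.5, 39.1 and 30.4 CPM in high-fat water, without overlap. It fell with the diet (log2 −0.82, SE 0.21; edgeR adjusted p = 0.0148), and the call held without each library in turn but not without the 9 with other-organ transcripts (−0.81, adjusted p = 0.0718). With tea the high-fat libraries held 29.5, 44.6, 60.5, 25.9 and 37.2 CPM, spanning the whole high-fat water range (log2 0.07, SE 0.21; edgeR adjusted p = 0.885). The receptor gene Ahr fell from 26 ± 3.52 to 14.4 ± 2.00 CPM with the diet (n = 5 each; log2 −0.85, SE 0.20; edgeR adjusted p = 0.00883), without overlap, and was not called without those 9 libraries (adjusted p = 0.0943). At 23.2 ± 6.52 CPM in high-fat tea, its difference from high-fat water was 0.69 (SE 0.20; edgeR adjusted p = 0.0542), which was not called.

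Cyp2f2 (chromosome 7, 26819334 to 26833085, plus strand), known from the club cells of the airway, stood at 15.1, 47.0, 12.9, 40.4 and 7.83 CPM in chow water and at 0.820, 1.16, 1.44, 1.55 and 0.866 CPM in high-fat water. All high-fat water libraries lay below all chow water libraries (log2 −4.40, SE 0.88; edgeR adjusted p = 0.00395), and this call held without each library in turn but not without the 9 with other-organ transcripts (−4.38, adjusted p = 0.0817). The 2 highest chow water libraries, replicates 2 and 4, were also those with the most brown and beige fat transcripts, at 1008 and 1325 CPM against 26.2 to 118 CPM in the other 3. In high-fat water, replicates 2 and 3 held 853 and 1113 CPM of those transcripts at 1.16 and 1.44 CPM of Cyp2f2, and their part in the result was not tested. Some 13.5% of its exonic bases overlap Gm15883 on the opposite strand, whose reads cannot be separated here. In high-fat tea it held 3.02, 37.6, 2.18, 20.1 and 1.47 CPM, with the 2 high values in the libraries that carried adrenal and kidney transcripts. Those libraries, replicates 2 and 4, held 1047 and 66.1 CPM of the brown and beige fat transcripts, and replicate 1 held 607 CPM. The rise with tea (log2 3.46, SE 0.84; edgeR adjusted p = 0.0284) was lost in 5 of 10 fits, those without high-fat tea replicate 2 (2.51) or 1 of high-fat water replicates 1, 2, 3 and 5. Without the 7 libraries over a lower organ threshold of 200 CPM, chosen after seeing the data, it stood at 1.07 and was not called (adjusted p = 0.405, against 0.000115 to 0.218 under the other alternatives).

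Cyp2b10 (chromosome 7, 25597045 to 25626049, plus strand) held 68.5, 21.0, 1.44, 3.88 and 0.351 CPM in chow water and 0.514, 0.350, 1.01, 0.410 and 0.356 CPM in high-fat water. Its 2 highest chow water values stood in the libraries with gut and kidney transcripts. The log2 change of −5.17 (SE 1.36; edgeR adjusted p = 0.0172) was −3.69 without chow water replicate 1, and −1.82 and no longer called without the 4 libraries with kidney, adrenal or gut transcripts. High-fat tea libraries held 7.44, 32.1, 5.46, 1.25 and 1.07 CPM, all above the high-fat water libraries, with a log2 difference of 4.17 that was not called (SE 1.29; edgeR adjusted p = 0.07) and stood at 2.85 without high-fat tea replicate 2. It was called without high-fat tea replicate 5, without the 4 libraries just named (4.41, edgeR adjusted p = 0.0375) and by DESeq2 (4.19, adjusted p = 0.0013).

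Among the fatty acid and eicosanoid enzymes, the leukotriene-hydroxylase relatives Cyp4f13 and Cyp4f17 were lower on the high-fat diet. Cyp4f13 (chromosome 17, 33143662 to 33166376, minus strand) held 42.3, 26.8, 31.9, 29.5 and 26.5 CPM in chow water, 22.9, 20.6, 21.0, 21.3 and 18.3 CPM in high-fat water and 25.5, 33.9, 30.5, 40.2 and 25.1 CPM in high-fat tea. High-fat water lay below both other groups without overlap. The change was small, at −0.59 on the log2 scale with the diet (SE 0.14; edgeR adjusted p = 0.00972) and 0.58 with tea (SE 0.14; edgeR adjusted p = 0.028). The first call held without each library in turn, though not without the 9 libraries with other-organ transcripts (−0.46, adjusted p = 0.0932), and the second ended in 7 of 10 fits (those without tea replicates 2, 3 or 4 or water replicates 1, 2, 3 or 5), with adjusted p of up to 0.067.

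Cyp4f17 (chromosome 17, 32725024 to 32749117, plus strand) held 20.2, 34.0, 57.4, 29.4 and 36.1 CPM in chow water and 17.3, 19, 15, 15.3 and 15.2 CPM in high-fat water, without overlap (log2 −1.11, SE 0.28; edgeR adjusted p = 0.0128). High-fat tea libraries held 24.6, 21.5, 48.4, 13.7 and 26.9 CPM, of which replicate 4 lay below every high-fat water library (log2 0.72, SE 0.27; edgeR adjusted p = 0.12). Without the 4 libraries with kidney, adrenal or gut transcripts, which include that one, the rise with tea was 0.89 and was called (adjusted p = 0.0445). The diet call held without each library in turn.

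Among the called members of this role, Cyp4a10 and Cyp4a32 had their highest high-fat tea values in the library with kidney transcripts. Cyp4a10 held 28.7, 161, 1.44, 1.00 and 7.53 CPM in chow water, 0.465, 0.125, 0.122, 0.821 and 0.498 CPM in high-fat water and 1.24, 9.03, 0.644, 835 and 2.24 CPM in high-fat tea. Its highest values in chow water and in high-fat tea were those of the kidney libraries. The diet difference of −6.59 (SE 2.11; edgeR adjusted p = 0.0422) was −4.52 without chow water replicate 2, and the tea difference of 8.68 (SE 2.30; edgeR adjusted p = 0.0409) was 3.0 without high-fat tea replicate 4, both no longer called. Each of the 5 high-fat water libraries, when left out, also removed both calls, as did high-fat tea replicates 2 and 3 for the tea call. Without the 4 libraries with kidney, adrenal or gut transcripts the diet difference was −3.48 and was not called (edgeR adjusted p = 0.0776). Without the 7 libraries over the 200 CPM organ threshold it was −3.45 and was called (edgeR adjusted p = 0.0224). The tea difference was 2.17 without those 7 and was not called (edgeR adjusted p = 0.177).

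Cyp4a32, which shares 12.5% of its 100-base words with Cyp4a10, held 0.175 to 0.627 CPM in high-fat water and 0.684, 0.714, 0.738, 9.18 and 0.772 CPM in high-fat tea. Although it was not marked, its high-fat tea mean rested on the kidney library. The difference with tea of 2.59 (SE 0.68; edgeR adjusted p = 0.0402) fell to 0.86 without that library and was then not called. Leaving out any high-fat water library or tea replicate 3 also removed the call. Such near-identical stretches mean that reads may be split among the Cyp4a genes in a way that cannot be checked here.

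The other fatty acid enzymes with the highest levels were not called in the comparisons. Cyp4v3, a fatty acid hydroxylase of many tissues, held 231, 40.5, 54.4, 40.2 and 78.1 CPM in chow water and 208, 139, 109, 112 and 128 CPM in high-fat water. Its log2 difference of 0.65 (SE 0.48; edgeR adjusted p = 0.379) was 1.34 and called without chow water replicate 1, the library with pancreatic and gut transcripts. High-fat tea libraries ranged from 38.0 to 177 CPM and chow tea libraries from 26.7 to 46.6 CPM. Cyp2j6, an epoxygenase, held 206 CPM in chow water replicate 1 and 23.5 to 37.0 CPM in the other 19 libraries. Cyp2j9 held 9.62 to 21.4 CPM in all libraries, and Cyp4f16 8.41 to 16 CPM outside chow water replicate 1.

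Of the sterol, bile acid, vitamin D and retinoid enzymes, edgeR called Cyp8b1 alone, in the tea comparison on the high-fat diet, where DESeq2 called Cyp8b1, Cyp7b1 and Cyp26b1. Cyp27a1 (chromosome 1, 74752733 to 74777051, plus strand), the mitochondrial sterol 27-hydroxylase, stood at 60.7 ± 10.7, 54.5 ± 9.96, 65.4 ± 12.6 and 67.4 ± 14.5 CPM in chow water, chow tea, high-fat water and high-fat tea (n = 5 each), with log2 differences of −0.16 to 0.31 over the 4 pairwise comparisons. These differences were within 2 SE of 0. Cyp26b1, which breaks down retinoic acid, stood at 7.33 ± 3.82, 12.0 ± 2.90, 6.77 ± 1.25 and 12.2 ± 4.6 CPM in the same order. Its tea differences of 0.72 on chow and 0.85 on the high-fat diet (SE 0.31 each; edgeR adjusted p = 0.351 and 0.109) were not called by edgeR. Cyp8b1, the bile acid 12-alpha-hydroxylase, was called higher with tea on the high-fat diet (log2 2.93, SE 0.68; edgeR adjusted p = 0.0242), with 16.3 CPM in high-fat tea replicate 4 and 0.832 to 2.76 CPM in the other 4 libraries against 0.362 to 0.765 CPM in high-fat water. It stood at 1.32 without high-fat tea replicate 4. That call ended without high-fat water replicate 1 or 2. It also ended without the 4, 7 or 9 libraries with organ transcripts, with a replicate block and with only the groups compared.

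Among the steroid and gut-marked genes, the calls of Cyp11a1, Cyp3a13 and Cyp3a11 were lost without 1 organ-bearing library each. Cyp11a1, the 1 member that edgeR called higher on the high-fat diet in water-drinking mice, held 1500 CPM in high-fat water replicate 4 and 0.119 to 0.362 CPM in the other 4 libraries of that group, against 0.195 to 0.992 CPM in chow water. High-fat tea replicate 2, with adrenal traces, held 67.9 CPM. Its log2 difference of 8.83 (SE 2.69; edgeR adjusted p = 0.0343) turned to −1.32 without high-fat water replicate 4, and the call also ended without any one of the chow water libraries. Cyp3a13 and Cyp3a11, called lower with the diet (log2 −7.43 and −8.85; edgeR adjusted p = 0.0114 and 0.0444), stood at −0.25 and 1.91 without chow water replicate 1, and neither was then called. Cyp3a11 also lost its call without any high-fat water library and stood at −10.23 without high-fat water replicate 4. Cyp2c55, also called lower (log2 −6.49, SE 1.38; edgeR adjusted p = 0.00553), held 10.8, 1.89, 0.154, 0.954 and 0.515 CPM in chow water and at most 0.05 CPM in high-fat water. It stood at −4.83 and was still called without chow water replicate 1, but was not called without the 4 libraries with kidney, adrenal or gut transcripts (−3.80, adjusted p = 0.0519) or without the 9 with other-organ transcripts (−3.43, adjusted p = 0.18). Without the 7 libraries over the 200 CPM organ threshold Cyp2c55 stood at −3.78 and was called (edgeR adjusted p = 0.0344).

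**Figure D3:**
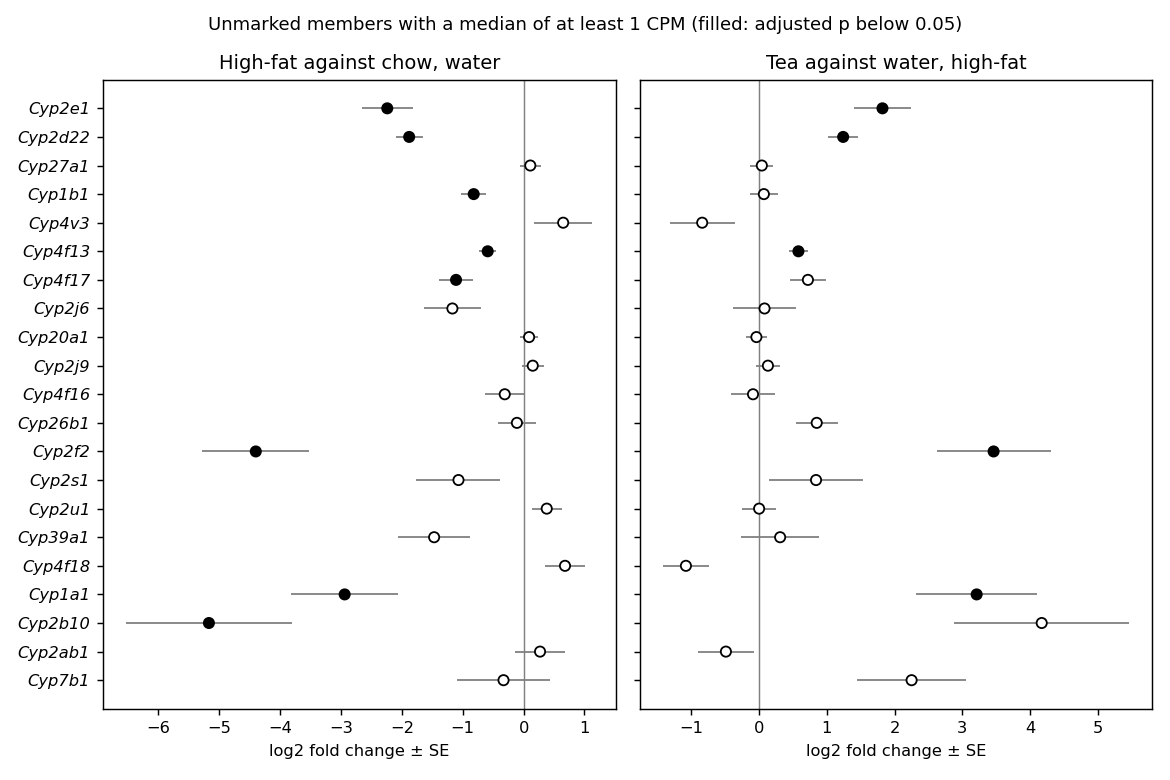
Log2 fold change ± SE (horizontal axes, with different ranges) of the 21 unmarked members with a median of at least 1 CPM, for the high-fat diet against chow with water (left) and tea against water on the high-fat diet (right), with filled points at an adjusted p below 0.05. Both panels use the same 5 high-fat water libraries. On the left Cyp2e1 lies at −2.24 and Cyp2d22 at −1.88, and on the right at 1.82 and 1.24.

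In chow-fed mice no member passed the edgeR threshold with tea. With edgeR 0 of 64 members and 0.0235% of all genes were called, and 13 members were at an unadjusted p below 0.05 (12.4% of all genes). The median log2 change was −1.39 over the 30 marked members and −0.18 over the 34 unmarked ones, beside −0.03 over all genes. DESeq2 called 2 of 38 members lower, Cyp2c55 and Cyp4f39, against 1.36% of all genes. Cyp2e1 held 10810, 8393, 8185, 8780 and 9729 CPM in chow tea (mean 9179 ± 1087, log2 difference from chow water 0.50, SE 0.41; edgeR adjusted p = 0.664), with overlap. Cyp4f17 held 79.3, 56.0, 61.4, 65.4 and 80.2 CPM in chow tea, above 4 of the 5 chow water libraries (log2 0.95, SE 0.27; edgeR adjusted p = 0.201). Cyp1a1 held 8.74, 9.31, 3.89, 7.97 and 14.0 CPM, and its difference of 1.11 (SE 0.82; edgeR adjusted p = 0.631) was not called.

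Between high-fat and chow feeding in tea-drinking mice, edgeR called 0 of 64 members and 0.178% of all genes, with 25 members at an unadjusted p below 0.05 (16.3% of all genes). The median log2 change was 4.5 over the 30 marked members and 0.09 over the 34 unmarked ones, beside 0.07 over all genes. DESeq2 called 9 of 37 members (4.92% of all genes), 6 higher and 3 lower. Those higher included the kidney-marked Cyp2a12, Cyp8b1, Cyp2d10 and Cyp2c50, each at its highest in high-fat tea replicate 4. Cyp2d22 (236, 192, 210, 225 and 238 CPM in chow tea) was higher in every chow tea library than in any high-fat tea library, at a log2 difference of −1.02 (SE 0.22; edgeR adjusted p = 0.0591), and was called without high-fat tea replicate 3. Cyp4f17 likewise did not overlap (log2 −1.34, SE 0.28; edgeR adjusted p = 0.054), and it and Cyp1b1 (log2 −0.72, SE 0.21; edgeR adjusted p = 0.132) were also called without that library. In this comparison 5 members had groups that did not overlap (Cyp2d22, Cyp4f17, Cyp2t4, Cyp2c70 and the gut-marked Cyp3a13), against 2.77% of all genes. For Cyp2e1 the difference was −0.92 (SE 0.41; edgeR adjusted p = 0.277), and the groups overlapped through high-fat tea replicate 3.

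Whether the change with tea depended on the diet was tested as an interaction. With edgeR 0 of 64 members and 0.0657% of all genes were called, with 30 members at an unadjusted p below 0.05 (15% of all genes). The median interaction was 7.86 over the 30 marked members and 0.71 over the 34 unmarked ones, beside 0.05 over all genes. DESeq2 called 3 of 38 higher (3.61% of all genes), namely Cyp2f2, Cyp8b1 and Cyp2d26. Cyp2d26 was highest in chow water replicate 1, at 135 CPM, and high-fat tea replicate 4, at 112 CPM. The interaction was 1.32 (SE 0.57; edgeR adjusted p = 0.283) for Cyp2e1, 0.86 (SE 0.31; edgeR adjusted p = 0.188) for Cyp2d22 and 0.54 (SE 0.20; edgeR adjusted p = 0.196) for Cyp4f13. None of these 3 was called by edgeR over all 20 libraries. Without the 4 libraries with kidney, adrenal or gut transcripts the interaction of Cyp2d22 was 1.16 and was called.

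The partners of the P450 enzymes were followed in a list of 40 genes, of which 38 were tested. With the high-fat diet in water-drinking mice 5 were higher and 7 lower. In the electron supply group 4 of 9 fell, namely Por, Cyb5a, Pgrmc1 and Pgrmc2, and the mitochondrial Fdxr was called higher at 292 CPM in the adrenal library against 7.01 to 10.3 CPM in the other high-fat water libraries. Por, the shared electron donor, stood at 349, 547, 618, 534 and 637 CPM in chow water and 267, 375, 373, 274 and 403 CPM in high-fat water, with overlap through chow water replicate 1 (log2 −0.67, SE 0.18; edgeR adjusted p = 0.0212). In high-fat tea it stood at 542, 577, 680, 475 and 501 CPM, above every high-fat water library (log2 0.71, SE 0.18; edgeR adjusted p = 0.0353), and it was the 1 list gene called in that comparison. Its diet call ended without high-fat water replicate 1 or 4, and its tea call without 7 of the 10 libraries in turn, namely tea replicates 1 to 3 and water replicates 1 to 4 of the high-fat groups, with log2 changes of 0.63 to 0.78.

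None of the 10 genes of haem synthesis and breakdown was called in any of the 5 comparisons, among them Alas1, the first enzyme of haem synthesis (log2 differences of −0.22 to 0.53 over the 4 pairwise comparisons). Ephx1, the microsomal epoxide hydrolase that follows P450 epoxidation, rose with the diet (log2 1.29, SE 0.18; edgeR adjusted p = 0.000411). The 9 called xenobiotic members were lower over all 20 libraries. Without the 4 libraries with kidney, adrenal or gut transcripts, Cyp3a13, Cyp3a11, Cyp2b10, Cyp2c55 and Cyp1a1 were not called (log2 −0.01, 0.1, −1.82, −3.8 and −2.49). Ephx1 then stood at 0.95 and was still called. In the aryl hydrocarbon receptor group Ahr and its partner Arnt fell, 2 of 4. Of 10 tested nuclear receptors 1 fell and 1 rose in this comparison. The lower 1 was Nr1i2 (PXR), at 64.3 CPM in chow water replicate 1 and at most 0.678 CPM in the other chow water libraries, and the higher 1 was Rara. Ppara, the fatty acid receptor that drives Cyp4a genes in liver, ranged from 13.9 to 109 CPM in chow water and 4.04 to 29.8 CPM in high-fat water and was not called (log2 −1.53, SE 0.66; edgeR adjusted p = 0.122).

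Dbp and Tef, clock output factors that bind the D-box, both rose with the diet. Dbp stood at 2.18, 3.12, 2.95, 3.64 and 1.97 CPM in chow water, 10.4, 10.3, 7.15, 10.0 and 7.23 CPM in chow tea, 48.4, 63.2, 69.3, 79.5 and 81.2 CPM in high-fat water and 51.2, 84.3, 65.9, 83.9 and 49.3 CPM in high-fat tea. It rose with the diet in water-drinking mice (log2 4.62, SE 0.23; edgeR adjusted p = 2.15e-09) and in tea-drinking mice (log2 2.89, SE 0.22; edgeR adjusted p = 1.56e-06), and with tea on chow (log2 1.70, SE 0.21; edgeR adjusted p = 0.00352). The call with tea on chow was lost with only the groups compared (adjusted p = 0.16) and without the 4, 9 or 7 libraries with organ transcripts (adjusted p = 0.0804, 0.484 and 0.171), at log2 changes of 1.59 to 1.69. Its interaction was −1.73 (SE 0.29; edgeR adjusted p = 0.0291). Tef rose with the diet by 1.44 in water-drinking and 1.28 in tea-drinking mice (SE 0.23 each; edgeR adjusted p = 0.000893 and 0.0237), and the second call was lost in 5 of 10 fits (without chow tea replicates 1, 3, 4 or 5 or high-fat tea replicate 1). The first was not called without the 9 libraries (1.00, adjusted p = 0.0534). Of the D-box members shown above, Cyp2b10 was called lower and Cyp27a1 was not called with the diet in water-drinking mice. The call of Cyp2b10 was lost without the 4 libraries with kidney, adrenal or gut transcripts (−1.82, edgeR adjusted p = 0.303). D-boxes also stood before Cyp2a4 and Cyp2a5 and in a window of Cyp4f14, marked members that edgeR called in no comparison. The part of the collection hour in these values was not tested.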

How the data were processed

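The authors deposited, for each of 20 libraries, raw counts of reads per gene (whole numbers, not normalized). The submitters' processing notes list the read trimmer fastp 0.23.2, the aligner HISAT2 2.2.1 and the counter featureCounts 2.0.6. Per the file headers, exons of a GENCODE annotation of GRCm39 were counted and summed by gene name, while the submitters' notes name mm10, and gene positions printed are GRCm39. No strand option was set, and reads of a pair were counted singly: 68.1% to 72.2% of counts from 1 to 20 were even. Per the labels' protocols, the libraries came from a stranded mRNA kit.

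From the deposited counts, genes were filtered with filterByExpr in edgeR 4.0.16 (minimum 10 counts in 5 libraries, relative to the median library size, and 15 in total), scaled by TMM and fitted by the edgeR quasi-likelihood F test over all 20 libraries as 4 group means, with Benjamini-Hochberg adjustment over 21306 genes and calls below 0.05. Levels are CPM on the TMM-scaled library size. SE is the log2 fold change over the square root of F. Libraries totalled 53047057 to 93314761 reads, and depth limits the rarest members alone. The common biological coefficient of variation was 0.593. No 2 libraries of a group agreed within sampling noise. The design gives separate mice in a group, so p-values measure the spread between mice, dissection and library preparation. The fit was tested on simulated counts.

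Named were members called in any comparison, the 12 of highest median level and the marked ones, with Por, Ahr, Ppara, Alas1, Dbp and up to 3 called partners of lowest p per comparison. Others named (Cyp17a1, Cyp26b1, Cyp39a1, Cyp4f39, Cyp2d26, Cyp2t4, Cyp2c70, Cyp7b1, Cyb5a, Pgrmc1, Pgrmc2, Fdxr, Arnt, Nr1i2 and Rara) were chosen after their values were seen. Members and lists were chosen with earlier results of these data known. Of the 100 members in the GENCODE transcripts used, 48 shared at least one 100-base stretch with another gene, and 11 of 45 named members overlap another gene, 5 on the opposite strand. Proteins were not used here. Alternatives were DESeq2 1.42.0, other scaling, no filter, only the groups compared, a replicate block and libraries left out.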

Additional observations from a re-analysis of the deposited data

Results flagged for a closer look

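Levels were examined in each group of 5 libraries for the members called or of highest level that carry no organ mark, 15 members and 60 groups in all. In 10 groups the highest or lowest library stood apart by more than 0.71 of the range. For independent groups of normally distributed values chance gives about 1 in 20, or 3. These CPM were not log-scaled and the 60 groups share the same 20 libraries, so that rate is a rough guide alone. Of these, 3 lay in chow water replicate 1, the library with pancreatic and gut transcripts: Cyp2j6 at 206 CPM, Cyp4v3 at 231 CPM and Cyp4f16 at 40.7 CPM. Cyp2j6 at 37.0 CPM and Cyp4a32 at 9.18 CPM were highest in high-fat tea replicate 4, the library with kidney transcripts. Cyp2b10 had a single high library in 3 groups, at 52.3 CPM in chow tea replicate 1, 1.01 CPM in high-fat water replicate 3 and 32.1 CPM in high-fat tea replicate 2. Cyp2e1 reached 10032 CPM in high-fat tea replicate 3, a level within the chow tea range. Cyp1a1 was lowest in chow water replicate 5, at 0.904 CPM.

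Among the partners, the change of Dbp with tea differed between the diets, by an interaction of −1.73 on the log2 scale (edgeR adjusted p = 0.0291). That call ended in 12 of the 20 fits that left out a library, with no filter on low counts (adjusted p = 0.0648), and without the 4, 9 or 7 libraries with organ transcripts (adjusted p = 0.0702, 0.39 and 0.167).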

How the results depend on the processing

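The count of members called was 13, 8, 0, 0 and 0 for diet in water, tea on the high-fat diet, tea on chow, diet in tea-drinking mice and the interaction. Leaving out single libraries gave 10 to 13, 1 to 13, 0 to 0, 0 to 4 and 0 to 0. For diet in water the count was 4 without the 9 libraries with other-organ transcripts, and 9 to 13 under the other alternatives. For tea on the high-fat diet it was 5 with no filter, 0 with only the groups compared, 1 without those 9 libraries (Cyp2d22) and 2 without the 7 libraries over a 200 CPM organ threshold (Cyp2e1 and Cyp2d22), an alternative chosen after seeing the data. For tea on chow DESeq2 gave 2. For diet in tea-drinking mice the count was 2 without the 4 libraries with kidney, adrenal or gut transcripts (Cyp2d22 and Cyp4f17), 1 without the 7 libraries (Cyp2d22) and 9 with DESeq2. For the interaction it was 1 without the 4 libraries and 3 with DESeq2. Sample numbers fell in the reduced sets, and other causes were not tested. With the replicate number as a block the counts were 9, 4, 0, 1 and 0. The numbers do not pair the mice: same-numbered libraries had correlations of −0.27 to 0.47 (median 0.01, 9 of 30 over 0.1), and 5 of 20 libraries correlated best with their own number. Directions turned for Cyp3a13 with the diet (0.04 without the 9 libraries, 0.02 without the 7), Cyp3a11 with the diet (0.10 without the 4, 0.14 without the 7, 1.91 without chow water replicate 1) and Cyp11a1, which stood at −1.68 with the diet without the 4, −1.34 without the 9, −1.66 without the 7 and −1.32 without high-fat water replicate 4, and at 6.10 with tea without the 4. Over the fits without 1 library Cyp3a11 ranged from −10.23 to 1.91 and Cyp11a1 from −1.32 to 9.15 with the diet. Members near 0 reads are limited by depth.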
